A study of Homo sapiens with 72 samples.

Results

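IGROV1 is a human ovarian carcinoma cell line that expresses the RNA-binding protein LIN28A, and 2 TUT4/7-mutant lines derived from it were compared here with each other at the mRNA level. All 8 poly(A)-selected mRNA libraries of the mutants (mutant_1 and mutant_2, replicates 1 to 4 each) were taken from the 72 samples of the series, with the 4 wildtype IGROV1 mRNA libraries as the reference level. Both mutant lines carry the genotype given as LIN28A+; TUT4-; TUT7- and were made with a Cas9 nickase aimed at exon 12 of TUT4 and exon 14 of TUT7, and the wildtype line is LIN28A+ with both transferases unedited. All cells were grown in the same serum-containing RPMI medium without further treatment, so the clones share the edited loci and the culture and differ in which edited cell they descend from. Each mutant is a clonal line, and its replicates are successive passages, 2 to 5 in mutant_1 and 3 to 6 in mutant_2, against 6 to 9 in the wildtype. The replicates within a line are therefore successive cultures of 1 clone, which the tests treat as independent although 1 passage may descend from another. The p-values below measure the spread between cultures within a line, estimated with the wildtype libraries included. They do not measure how far independent clones vary, for which there are 2 examples. The clone number recorded for each replicate differs in its last figure within a line, although the sample titles treat the 4 replicates as 1 mutant, and the titles were followed here.

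TUT4 and TUT7 are terminal uridylyltransferases that add uridines to the 3′ ends of RNAs. Precursors of the let-7 microRNAs are among their substrates: a long uridine tail, added when LIN28A is bound, leads to degradation of the precursor, whereas a single added uridine can favour its maturation. They also uridylate mRNAs with short poly(A) tails. Comparing 2 clones with the same edited genes asks which mRNA differences belong to a clone and are not shared by both.

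Between 7729672 and 25054688 reads per mutant library were assigned to genes, against 15029939 to 19317514 in the wildtype libraries, and the lowest total was that of mutant_1 replicate 4. The replicate 4 library stood apart from the other 3 in both clones. Across genes, Pearson's r between the log2 values of libraries was 0.991 to 0.992 among mutant_1 replicates 1 to 3 and 0.952 to 0.962 between these and replicate 4. In mutant_2 the corresponding ranges were 0.991 to 0.994 and 0.969 to 0.979, and the 4 wildtype libraries correlated at 0.992 to 0.994. The deviations of the 2 mutant replicate 4 libraries from the other replicates of their own clone correlated at 0.79 across genes. These deviations also correlated with transcript length (Spearman correlation -0.34 in mutant_1 and -0.32 in mutant_2, against 0.06 for replicate 4 of the wildtype), with longer transcripts lower in replicate 4. The number of called genes, the counts of many gene lists and some single genes are given with and without these libraries. The source of their difference was not tested.

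**Figure D1:**
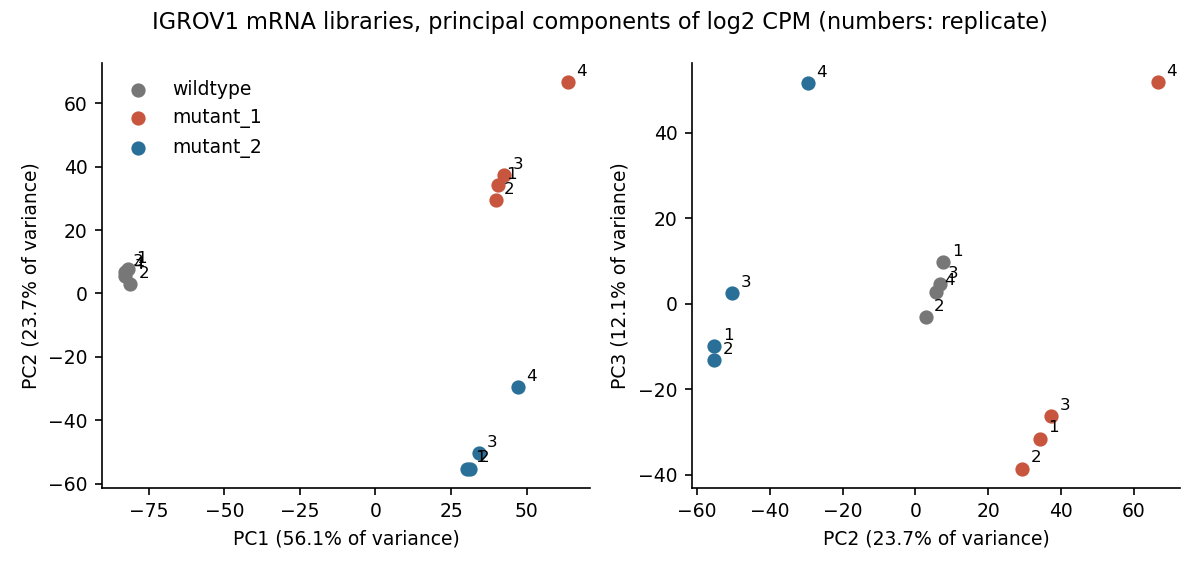
Principal components of log2 CPM (counts scaled to library size) in the 12 IGROV1 mRNA libraries, with the first against the second component on the left and the second against the third on the right (axes in component units, percent of variance in brackets, numbers mark replicates). The first component (56.1% of the variance) separates both mutants from the wildtype, the second (23.7%) separates mutant_1 from mutant_2, and the third (12.1%) separates replicate 4 of each mutant from all other libraries.

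TUT4 and TUT7 transcripts were lower than in the wildtype in both clones. TUT4 (listed as ZCCHC11, chr1:52423275-52553463, GRCh38.p14) was at 69.7, 82.5, 80.5 and 76.9 CPM (counts per 1000000 assigned reads, on scaled library sizes) in the wildtype libraries, at 31.9, 33.5, 31.2 and 11.9 CPM in mutant_1 and at 30.2, 30.2, 27.1 and 17.5 CPM in mutant_2. All 8 mutant libraries lay below the lowest wildtype library, and the clones overlapped. TUT7 (listed as ZCCHC6, chr9:86287733-86354410) was at 27.8, 37.5, 37.2 and 31.7 CPM in the wildtype, at 19.8, 22.8, 21.0 and 9.76 CPM in mutant_1 and at 14.0, 14.1, 11.9 and 8.83 CPM in mutant_2. The difference between the clones was 0.06 ± 0.26 (log2 fold change ± SE, mutant_1 minus mutant_2) for TUT4, with an adjusted p of 0.9 in edgeR's quasi-likelihood test. For TUT7 it was 0.60 ± 0.23 with an adjusted p of 0.074, and without both replicate 4 libraries it was 0.66 ± 0.13 with an adjusted p of 0.00063, higher in mutant_1. Against the wildtype, TUT4 changed by -1.50 ± 0.26 in mutant_1 and by -1.56 ± 0.26 in mutant_2, and TUT7 by -0.86 ± 0.23 and -1.45 ± 0.23. The TUT7 value of mutant_1 had an adjusted p of 0.0091 and lost the call when any 1 wildtype library was left out (adjusted p 0.011 to 0.028). Counts over a whole gene do not show whether its edited exon is intact.

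LIN28A was at 161, 235, 201 and 242 CPM in mutant_1 and at 245, 221, 243 and 332 CPM in mutant_2, and the clones were not called different (adjusted p 0.19). LIN28B had too few counts to be tested. Of the 10 other terminal nucleotidyltransferases and poly(A) polymerases tested, 2 were called between the clones (against 16.6% of all genes tested), both higher in mutant_1. These were TENT5A (listed as FAM46A), a non-canonical poly(A) polymerase, at 307 ± 87.4 CPM (SD, n = 4) against 141 ± 13.6 CPM in mutant_2, and its paralog TENT5B (FAM46B) at 15.6 ± 5.76 against 6.23 ± 1.82 CPM. BCL2, an inhibitor of apoptosis, was at 67.0 to 86.6 CPM in mutant_1 and at 61.5 to 75.8 CPM in mutant_2, with every wildtype library between 8.76 and 11.8 CPM. The clones were not called different for BCL2 (log2 fold change 0.12 ± 0.13, adjusted p 0.53), while each clone was called against the wildtype.

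The ovarian carcinoma label was checked with 10 epithelial markers. PAX8, a transcription factor of Müllerian epithelia, was high in every group, at 822, 696, 872 and 938 CPM in mutant_1 and at 410, 497, 551 and 614 CPM in mutant_2. Its clones did not overlap and mutant_1 was higher by 0.68 ± 0.13 on the log2 scale (adjusted p 0.0018). EPCAM was at 69.2 to 84.6 CPM in the wildtype and at no more than 0.463 CPM in any mutant library, and KRT8 was at 167 to 229 CPM in the wildtype and at no more than 6.27 CPM in the mutants. KRT18, the usual keratin partner of KRT8, separated the clones: it was at 197, 276, 308 and 442 CPM in mutant_1, about the wildtype level of 193 to 252 CPM, and at 25.7, 27.3, 30.5 and 45.1 CPM in mutant_2 (log2 fold change 3.25 ± 0.25, adjusted p 9.1e-07). KRT7, WT1 and MSLN were at or under 1 CPM on average in every group. FOLR1, the folate receptor of ovarian carcinomas, was at 445, 366, 465 and 830 CPM in mutant_1 and at 108, 100, 119 and 207 CPM in mutant_2 (1.98 ± 0.27, adjusted p 0.00013). Of the 9 tested markers in this list, 4 were called higher in mutant_1 (PAX8, KRT18, KRT19 and FOLR1) and 0 higher in mutant_2. That is 44.4%, against 16.6% of all genes. The summed level of the list was 1829 to 3122 CPM in mutant_1, 838 to 1166 CPM in mutant_2 and 2229 to 2589 CPM in the wildtype.

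Summed markers of immune cells, fibroblasts and prostate luminal epithelium were at most 34.6 CPM in any library, and endothelial markers were higher in sum. Of 12 immune markers only CD68 passed the filter on low counts, and CD3D, CD3E and CD163 had 0 counts in the 12 libraries. The summed immune level was 11.3 to 21.1 CPM in mutant_1 and 10.1 to 19.9 CPM in mutant_2. Of 9 fibroblast markers 3 were tested and 1, COL1A1, was called (33.3%, against 16.6% of all genes), while DCN and FAP had 0 counts. None of 4 tested prostate luminal markers was called in the edgeR test (1 higher in mutant_2 at an unadjusted p under 0.05 and 1 in DESeq2), with 25.3 to 30.6 CPM in sum in mutant_2 and 15.3 to 30.2 CPM in mutant_1. Of 6 tested endothelial markers, KDR was called higher in mutant_1 and CDH5 higher in mutant_2 (33.3% together, against 16.6% of all genes). PECAM1 was at 0.0671 and 0.0121 CPM on average in the clones. The summed endothelial level was 141, 90, 108 and 183 CPM in mutant_1, 113 to 204 CPM in mutant_2 and 136 to 169 CPM in the wildtype. KDR was at no more than 0.113 CPM in any mutant_2 or wildtype library, so other members made up the sums there. In bulk libraries fewer cells of a type and less RNA per cell cannot be told apart.

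The contrast of the clones called 2309 of 13932 genes tested (16.6%) at an adjusted p under 0.01, with 1038 (7.45%) higher in mutant_1 and 1271 (9.12%) higher in mutant_2. For scale, 27.8% of the genes were called for mutant_1 and 27.7% for mutant_2 against the wildtype, from tests that share the 4 wildtype libraries. The difference was at least 2-fold for 480 genes called higher in mutant_1 and 795 called higher in mutant_2, together 9.15% of the genes tested, and at least 16-fold for 52 and 56 genes. In 2213 of the called genes the 4 libraries of one clone all lay above the 4 of the other, as they did in 23.8% of all genes tested. Without both replicate 4 libraries 4549 of 14132 genes (32.2%) were called, 2171 higher in mutant_1 and 2378 higher in mutant_2, and these included 98.8% of the 2309. With the spread estimated from the 8 mutant libraries alone, 1428 genes were called. In DU145, a prostate carcinoma line without LIN28A, the same test between its 2 TUT4/7-mutant clones called 4657 of 13839 genes (33.7%). Of the genes called in IGROV1 and tested in DU145, 37.8% were called there too, and of the genes called in DU145 and tested in IGROV1, 18.1%.

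**Figure D2:**
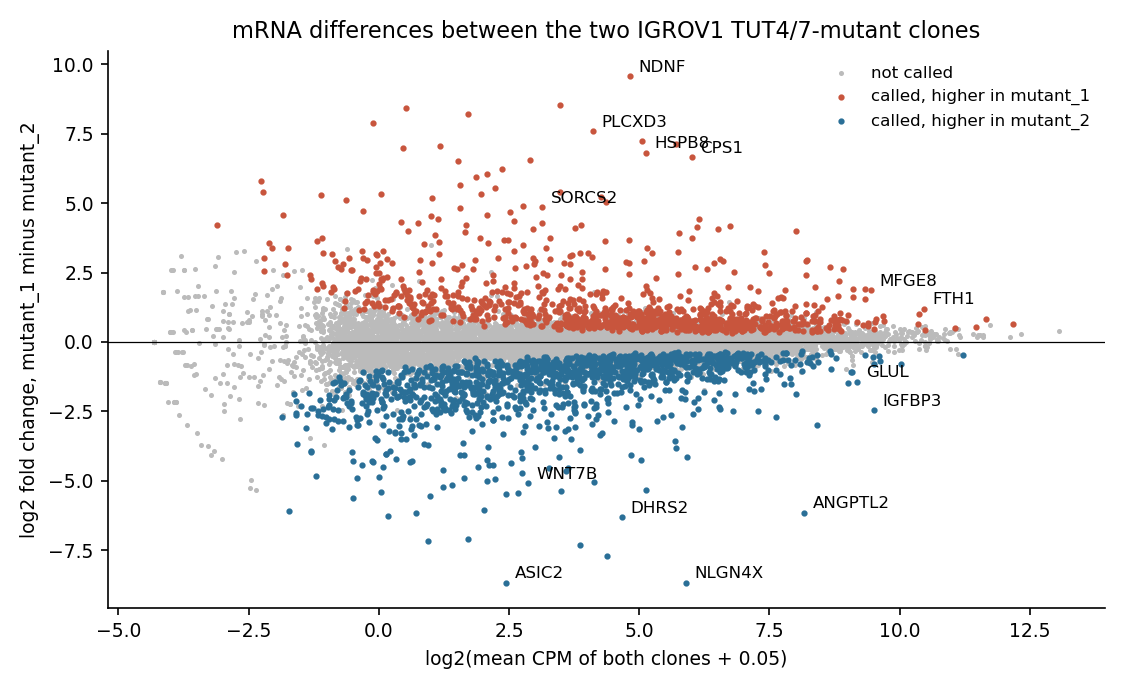
Log2 fold change between the clones (mutant_1 minus mutant_2, vertical) against log2 of the mean CPM of both clones plus 0.05 (horizontal), with 1 point per gene tested. Red points are the 1038 genes called higher in mutant_1, blue points the 1271 called higher in mutant_2, and grey points were not called. NDNF and NLGN4X lie near the ends of the scale at 9.58 and -8.67.

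The wildtype level could lie anywhere relative to the clones. Of the 1038 genes higher in mutant_1, the wildtype mean was above both clones in 268, between them in 274 (nearer mutant_1) and 252 (nearer mutant_2), and below both in 244. For the 1271 genes higher in mutant_2 the counts were 361 above both, 342 between and nearer mutant_2, 261 between and nearer mutant_1, and 307 below both. In 128 genes both clones were called against the wildtype in opposite directions. Mutant_1 was the higher clone in 58 of them and mutant_2 in 70.

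Several genes were expressed in mutant_1 and close to undetected in mutant_2 and the wildtype. NDNF (chr4:121035613-121072535), a secreted neurotrophic factor, was at 62.0, 48.1, 46.0 and 68.8 CPM in mutant_1, at 0, 0.113, 0 and 0.135 CPM in mutant_2 and at 0 to 0.156 CPM in the wildtype. The difference between the clones was 9.58 ± 0.45 on the log2 scale (adjusted p 1.8e-08). KDR, the main signalling receptor for VEGF, was at 42.8, 14.1, 13.3 and 18.4 CPM in mutant_1 and at no more than 0.113 CPM in any library of the other groups. CPS1 (chr2:210477685-210679107), the carbamoyl phosphate synthetase that feeds the urea cycle, was at 128, 129, 128 and 126 CPM in mutant_1, at 0.726, 1.32, 1.61 and 1.48 CPM in mutant_2 and at 0.052 to 0.232 CPM in the wildtype (6.66 ± 0.22, adjusted p 1.2e-09). The replicates of mutant_1, replicate 4 included, were nearly equal for CPS1. MAT1A, a synthetase of S-adenosylmethionine, was at 33.6, 27.4, 32.8 and 55.2 CPM in mutant_1 against 0.789 to 1.35 CPM in mutant_2. The heparan sulfate 3-O-sulfotransferase gene HS3ST3B1 was at 82.9, 78.0, 71.6 and 32.5 CPM in mutant_1 and at 0.135 to 0.601 CPM in mutant_2. MGC12916, a non-coding RNA gene within the span of HS3ST3B1 on chromosome 17, was at 49.1 to 135 CPM against 0.135 to 1.10 CPM. Reads of these overlapping genes may not have been told apart, since the strand setting of the counting was not given in the sources used here. IL16, a secreted cytokine, was at 9.84, 11.3, 9.60 and 28.3 CPM in mutant_1 and at no more than 0.22 CPM in any other library. The adaptor gene ANKS4B was at 14.1, 12.2, 11.6 and 2.33 CPM in mutant_1, with its replicate 4 lowest, and at 0 to 0.225 CPM in mutant_2.

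Other genes higher in mutant_1 were also expressed in the wildtype and low in mutant_2. PLCXD3, of the phospholipase C family, was at 36.1, 41.4, 43.9 and 16.9 CPM in mutant_1, at 0.290, 0.188, 0.0732 and 0.0674 CPM in mutant_2 and at 11.7 to 16.6 CPM in the wildtype (7.61 ± 0.41, adjusted p 4.6e-08). SETBP1, which encodes a SET-binding nuclear protein, was at 13.1 to 29.0 CPM in mutant_1, at 8.64 to 13.4 CPM in the wildtype and at 0.293 to 0.742 CPM in mutant_2. The neurotrophin gene BDNF and SORCS2, a sortilin-family receptor that binds its precursor, were both highest in the wildtype. SORCS2 was at 19.0, 14.1, 16.3 and 18.1 CPM in mutant_1 and 0.678, 0.376, 0.366 and 0.944 CPM in mutant_2, against 63.4 to 80.6 CPM in the wildtype. BDNF was at 14.9, 10.0, 15.2 and 3.93 CPM in mutant_1 and 0.290, 0.564, 0.732 and 0.135 CPM in mutant_2, against 51.4 to 74.1 CPM. Each clone was called lower than the wildtype for both genes, by 2.16 and 7.02 for SORCS2 and by 2.42 and 7.09 for BDNF on the log2 scale in mutant_1 and mutant_2. CPA4, a secreted carboxypeptidase, was at 35.8 to 43.7 CPM in mutant_1 against 0.629 to 2.09 CPM in mutant_2 and 2.18 to 3.83 CPM in the wildtype. The adhesion receptor gene ICAM2 was at 4.28 to 7.87 CPM in mutant_1, at no more than 0.0751 CPM in mutant_2 and at 14.4 to 17.8 CPM in the wildtype.

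Genes higher in mutant_2 were led by some that mutant_1 alone had lost relative to the wildtype. NLGN4X (chrX:5890042-6228867), a neuroligin that binds neurexins at synapses, was at 132, 129, 127 and 87.8 CPM in mutant_2, close to the wildtype range of 94.5 to 109 CPM, and at 0.347, 0.262, 0.316 and 0.146 CPM in mutant_1 (-8.67 ± 0.22, adjusted p 1.1e-10). HSD17B2, which oxidises oestradiol to oestrone, was at 46.8, 47.7, 41.5 and 29.7 CPM in mutant_2, at 0.174, 0.210, 0.316 and 0 CPM in mutant_1 and at 37.8 to 75.7 CPM in the wildtype. DLC1, a GTPase-activating protein, was at 32.3, 29.7, 32.2 and 20.8 CPM in mutant_2, at 0.289, 0.0525, 0.211 and 0.146 CPM in mutant_1 and at 36.3 to 52.4 CPM in the wildtype. For these 3 genes mutant_2 differed from the wildtype by 0.19 (adjusted p 0.29), -0.33 (0.26) and -0.66 (0.011), none of which passed the threshold. PLCL1, a phospholipase C-related protein, was at 23.4, 27.7, 25.4 and 11 CPM in mutant_2 and at 0.405 to 0.728 CPM in mutant_1, and was lower than the wildtype (51.4 to 59.9 CPM) in both. WNT7B, a Wnt ligand, was at 11.9, 12.5, 13.7 and 18 CPM in mutant_2, at 0.231, 0.0525, 0.949 and 0.874 CPM in mutant_1 and at 117 to 133 CPM in the wildtype.

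Another set had its highest level in mutant_2. DHRS2, a short-chain dehydrogenase/reductase, was at 46.9, 54.5, 43.1 and 57.4 CPM in mutant_2, at 0.405, 0.839, 0.527 and 0.728 CPM in mutant_1 and at 0.463 to 0.860 CPM in the wildtype (-6.32 ± 0.23, adjusted p 1.8e-09). SHISAL1 (listed as KIAA1644), a transmembrane protein gene, was at 15.1, 13.5, 13.5 and 7.55 CPM in mutant_2 and at no more than 0.754 CPM in any other library. NPPC, the precursor of C-type natriuretic peptide, was at 16.4, 9.66, 8.13 and 17.4 CPM in mutant_2 and at no more than 0.874 CPM in mutant_1. AMPH, which encodes the endocytic protein amphiphysin, was at 25.8 to 40.4 CPM in mutant_2, 0.521 to 1.37 CPM in mutant_1 and 2.25 to 3.48 CPM in the wildtype, so that mutant_1 was the lowest group. DOCK10, a guanine nucleotide exchange factor, was at 6.40 to 13.1 CPM in mutant_2 and at 0.174 to 0.291 CPM in mutant_1, with the wildtype between them at 1.71 to 3.65 CPM. The synaptic vesicle gene SV2C was at 9.97, 11, 8.93 and 1.82 CPM in mutant_2, lowest in replicate 4, and at no more than 0.157 CPM in mutant_1. IGFBP5, which binds insulin-like growth factors, had 442 counts in mutant_2 (5.28, 3.19, 5.57 and 11.6 CPM) against 2 counts in mutant_1 (ratio of pooled CPM 162, 95% interval for counting error only 44.6 to 1343).

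**Figure D3:**
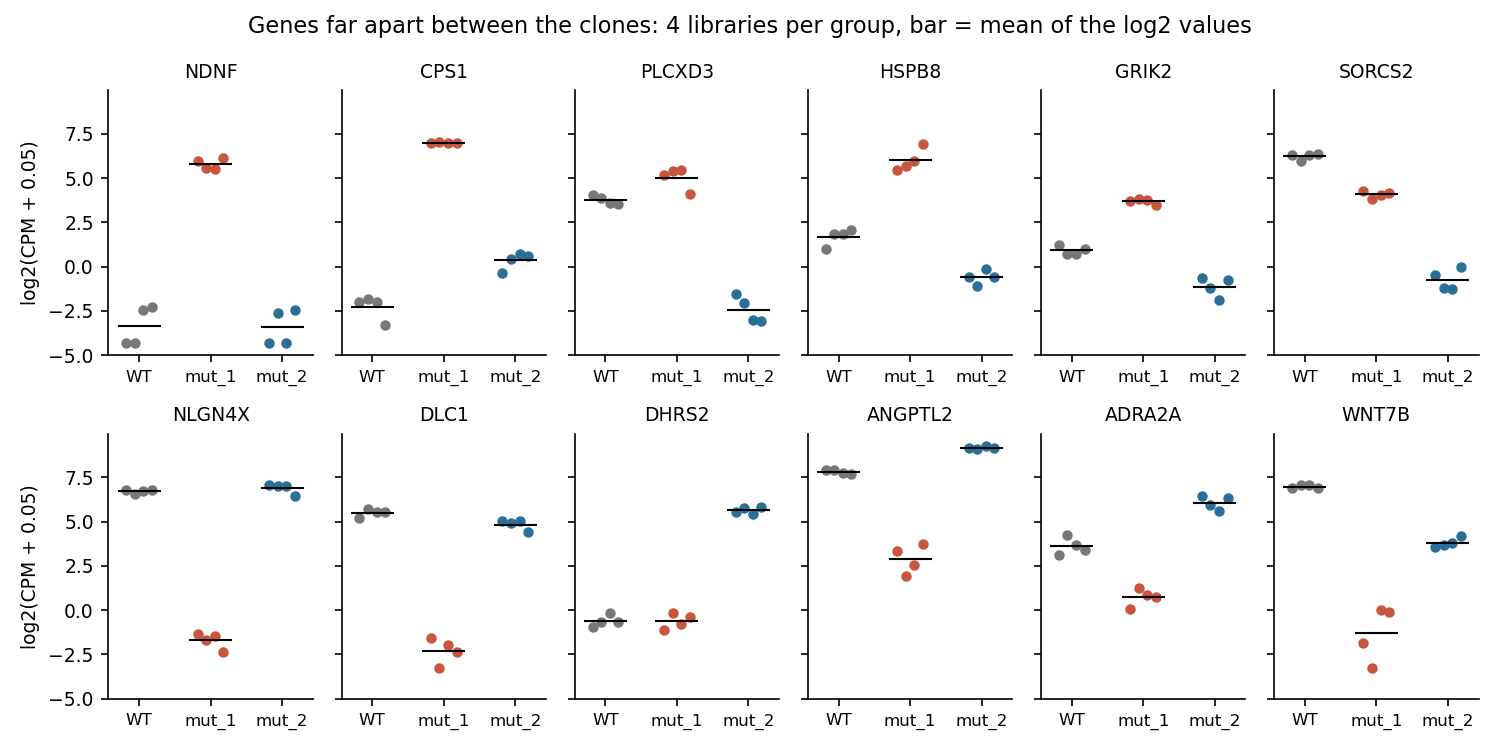
Log2(CPM + 0.05) in each of the 4 wildtype (grey), 4 mutant_1 (red) and 4 mutant_2 (blue) libraries for 12 genes, with the mean of the log2 values as a bar. The upper row holds genes higher in mutant_1 and the lower row genes higher in mutant_2, and in each of them the clones' libraries do not overlap while the wildtype lies near mutant_1 for DHRS2, near mutant_2 for NDNF and NLGN4X, between the clones for HSPB8 and ADRA2A, and above both for SORCS2 and WNT7B.

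The next 10 genes were picked for the clearest opposite changes against the wildtype, so the wildtype lies between the clones by that choice. HSPB8, a small heat shock protein, was at 44.4, 51.6, 62.0 and 120 CPM in mutant_1, at 1.95 to 4.10 CPM in the wildtype and at 0.629, 0.413, 0.879 and 0.607 CPM in mutant_2. The kainate receptor subunit gene GRIK2 was at 13.1, 14.3, 13.7 and 11.2 CPM in mutant_1, 1.59 to 2.31 CPM in the wildtype and 0.581, 0.376, 0.220 and 0.539 CPM in mutant_2. PCSK2, a prohormone convertase, and BCAT1, a branched-chain aminotransferase, followed the same order, with mutant_1 above the wildtype by 2.86 and 2.61 and mutant_2 below it by 3.08 and 2.95 on the log2 scale. In the other direction, ADRA2A, the alpha-2A adrenergic receptor gene, was at 86.2, 60.1, 49.2 and 78.9 CPM in mutant_2, at 8.64 to 19.0 CPM in the wildtype and at 0.984, 2.36, 1.79 and 1.60 CPM in mutant_1. KCNH2, a potassium channel gene, was at 10.5, 11, 10.8 and 11.7 CPM in mutant_2, at 2.31 to 2.83 CPM in the wildtype and at 0.521, 0.525, 0.527 and 0.583 CPM in mutant_1, and its replicates were close together in each group. ASIC2 (chr17:33013087-34156768), a subunit of acid-sensing ion channels, was at 11.7, 9.21, 13.4 and 8.76 CPM in mutant_2 with 799 counts in all, at 0.116 to 0.595 CPM in the wildtype, and had 1 count in the 4 mutant_1 libraries (ratio of pooled CPM between the clones 586, 95% interval 105 to 23174). ITGA1, SCUBE3 and ZNF385B were likewise above the wildtype in mutant_2 (by 2.74, 2.49 and 2.40) and below it in mutant_1 (by 1.91, 2.07 and 2.13).

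Of the 10 most abundant called mRNAs with at least a 2-fold difference, the ferritin chains FTH1 and FTL, which store iron, were both higher in mutant_1. FTH1 was at 1874, 1690, 2042 and 2292 CPM in mutant_1, at 758, 788, 905 and 990 CPM in mutant_2 and at 1296 to 1497 CPM in the wildtype, and FTL differed by 1.01 ± 0.15. Both genes have many processed pseudogenes, with which reads could be shared. MFGE8, a secreted bridge between apoptotic cells and phagocytes, was at 1121, 867, 1047 and 1358 CPM in mutant_1 and at 266, 256, 292 and 379 CPM in mutant_2 (1.88 ± 0.16, adjusted p 2.4e-06). LGALS3BP, a secreted galectin-3 ligand, differed by 1.91 ± 0.17 and PDLIM1, a cytoskeletal LIM protein, by 1.89 ± 0.32, both higher in mutant_1. S100A4, a calcium-binding protein, was at 687, 587, 804 and 1247 CPM in mutant_1, near the wildtype range of 617 to 728 CPM, and at 216, 214, 252 and 406 CPM in mutant_2. SOD3, the extracellular superoxide dismutase, was at 617 to 1688 CPM in mutant_1 and 203 to 620 CPM in mutant_2, so that the clones overlapped. Its call (adjusted p 0.0073) was lost when any library other than mutant_1 replicate 2 or mutant_2 replicate 4 was left out. Without both replicate 4 libraries SOD3 was called and differed by 1.61 (adjusted p 2.6e-07 in the edgeR test). In the other direction, IGFBP3, the main binding protein of circulating insulin-like growth factors, was at 1119, 1071, 1109 and 1616 CPM in mutant_2 and at 301, 138, 134 and 322 CPM in mutant_1 (-2.46 ± 0.30, adjusted p 5.5e-05). GLUL, glutamine synthetase, was at 641 to 1076 CPM in mutant_2 and 248 to 452 CPM in mutant_1, with the wildtype between them at 477 to 525 CPM. The membrane skeleton gene EPB41L2 was at 676 to 810 CPM in mutant_2 and 327 to 378 CPM in mutant_1.

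Some further genes, chosen after their values were seen, had differences of at least 2-fold between the clones. CTH, cystathionine gamma-lyase of the transsulfuration pathway, was at 479, 495, 522 and 455 CPM in mutant_1 against 26.8, 34.4, 31.1 and 28.6 CPM in mutant_2 and 24.2 to 37.6 CPM in the wildtype (4.01 ± 0.15, adjusted p 1.9e-09). ANGPTL2, a secreted angiopoietin-like protein that the naming rule itself selected, was at 558, 540, 613 and 562 CPM in mutant_2, at 205 to 242 CPM in the wildtype and at 10.2, 3.72, 5.91 and 13 CPM in mutant_1. The neighbouring homeobox genes DLX5 and DLX6 on chromosome 7 moved together. DLX5 was at 101, 99.5, 126 and 130 CPM in mutant_2 and 6.60, 5.46, 6.01 and 8.01 CPM in mutant_1, and DLX6 at 62.1, 66.4, 66.5 and 55.3 CPM and 3.82, 2.99, 3.16 and 2.91 CPM. TMSB4X, the actin-sequestering thymosin beta-4, was at 53, 45.4, 61.8 and 46.8 CPM in mutant_1 and 4.45, 3.01, 4.03 and 4.99 CPM in mutant_2, both under the wildtype range of 251 to 294 CPM. APOL1, an apolipoprotein L gene, was at 5.25 to 6.22 CPM in mutant_1, 0.220 to 0.607 CPM in mutant_2 and 131 to 150 CPM in the wildtype.

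Genes of neural adhesion and axon guidance, which include many cell-surface receptors used in other tissues too, were called in both directions. Of 41 tested, 9 were higher in mutant_1 and 10 in mutant_2, 46.3% together against 16.6% of all genes, and the median log2 fold change was -0.28 against 0.00 over all genes. With both replicate 4 libraries left out, 10 were higher in mutant_1 and 18 in mutant_2, where 32.2% of all genes were called. NCAM1, the neural cell adhesion molecule, was at 53.1, 57.1, 59.2 and 48.3 CPM in mutant_2 and at 3.53, 2.57, 4.54 and 2.04 CPM in mutant_1 (-4.09 ± 0.18, adjusted p 1.2e-08), and at 244 to 266 CPM in the wildtype. EPHA3, an ephrin receptor, was at 11.7, 9.39, 7.98 and 3.44 CPM in mutant_2 against 0.146 to 0.347 CPM in mutant_1 and 26.7 to 32.3 CPM in the wildtype. CHL1, an L1-family adhesion molecule, was at 6.58, 5.52, 2.34 and 0.742 CPM in mutant_2 and at no more than 0.210 CPM in mutant_1. The genes higher in mutant_1 were L1CAM, NRCAM, SEMA3B, PLXNB1, SLIT1, ROBO2, UNC5C, EPHA2 and EPHA4. Of 28 protocadherins tested 1 was higher in mutant_1 and 3 in mutant_2. PCDH9 was at 3.64 to 10.8 CPM in mutant_1 and 0.146 to 0.539 CPM in mutant_2, and PCDH1 at 3.07 to 4.67 and 21.3 to 25.3 CPM.

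Of 35 epithelial genes tested, 4 were called higher in each clone (22.9%, against 16.6% of all genes), with a median of 0.23. The desmosomal cadherin DSC2 and the epithelial splicing regulator ESRP2 were at 44.3 to 50.9 and 42.0 to 49.3 CPM in the wildtype. ESRP2 was at 2.27, 1.92, 2.12 and 2.90 CPM in mutant_2 and at 0.116, 0.0525, 0.211 and 0.146 CPM in mutant_1 (-4.23 ± 0.30, adjusted p 4.7e-07), and DSC2 at 0.674 to 0.939 and 0.105 to 0.289 CPM. Both genes were thus low in both clones, with mutant_1 the lower. The P-cadherin gene CDH3 was at 1.69 to 7.58 CPM in mutant_1 and 0.0968 to 0.513 CPM in mutant_2. Of 18 genes of epithelial-mesenchymal transition tested, 3 were higher in mutant_1 (S100A4, TAGLN and LOXL1) and 6 in mutant_2 (VIM, TGFB2, TGFBR2, LOX, LOXL2 and FOXC1), with a median of -0.75. TAGLN, an actin-binding protein of contractile cells, was at 101, 104, 138 and 176 CPM in mutant_1, at 13.1 to 23.9 CPM in the wildtype and at 3.73, 5.52, 7.91 and 12.3 CPM in mutant_2 (4.15 ± 0.35, adjusted p 2.1e-06). VIM, the intermediate filament vimentin, differed in the opposite direction, at 664 to 851 CPM in mutant_1 and 1275 to 1440 CPM in mutant_2. The TGF-beta receptor gene TGFBR2 was at 464, 424, 422 and 309 CPM in mutant_2 and at 113, 126, 117 and 89.2 CPM in mutant_1 (-1.86 ± 0.14, adjusted p 7.7e-07), where the wildtype was at 131 to 148 CPM. For LOX, lysyl oxidase, the clones overlapped, since mutant_2 replicate 4 was at 1.62 CPM and the other 3 at 6.88 to 11.9 CPM. Without both replicate 4 libraries LOX differed by -2.59 (adjusted p 1.3e-06 in the edgeR test).

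The basement membrane list, whose laminins, nidogens and perlecan form the sheet beneath epithelia, had 6 genes higher in mutant_1 and 3 in mutant_2 of 21 tested (42.9%, median 0.29). Over all genes 16.6% were called. NID2 was at 567, 477, 560 and 373 CPM in mutant_1 and at 79.9, 84.2, 100 and 107 CPM in mutant_2 (2.41 ± 0.18, adjusted p 7.0e-07), whereas its paralog NID1 was at 0.146 to 0.422 and 1.95 to 2.71 CPM. The laminin chains LAMA2, LAMA4 and LAMA5 were called higher in mutant_1, and LAMA1 and LAMC3 in mutant_2, with LAMA1 at 19.8 to 25.7 CPM in mutant_2, 1.89 to 5.91 CPM in mutant_1 and 0.720 to 1.56 CPM in the wildtype. Of 13 other collagens tested, 3 were higher in mutant_1 and 2 in mutant_2 (38.5% together). COL5A3 was at 29.7, 24.2, 27.4 and 41.1 CPM in mutant_1 and 3.24, 2.37, 3.95 and 5.19 CPM in mutant_2, and COL1A1 at 6.98 to 9.84 and 17.3 to 25.7 CPM. Of 18 integrins tested 2 were called in each direction, and this 22.2% was near the share of all genes. ITGA1, the collagen-binding alpha-1 subunit, was at 38.0, 28.0, 20.5 and 7.15 CPM in mutant_2 and 0.810, 1.47, 0.633 and 0.437 CPM in mutant_1 (-4.65 ± 0.48, adjusted p 1.3e-05). ITGB8, which pairs with alpha-V to release TGF-beta, was at 98.4, 106, 99.9 and 28.6 CPM in mutant_1 and 17.3 to 34 CPM in mutant_2, so that replicate 4 of mutant_1 fell inside the mutant_2 range. Without both replicate 4 libraries ITGB8 differed by 1.76 (adjusted p 3.8e-08 in the edgeR test). Among 26 matrix proteases and inhibitors, 4 were higher in mutant_1 and 3 in mutant_2 (26.9% together). TIMP3, a matrix-bound metalloproteinase inhibitor, was at 13 to 22.8 CPM in mutant_1 against 1.35 to 3.98 CPM in mutant_2, and the sheddase gene ADAM19 was at 6.09 to 13.3 CPM against 36.5 to 52.2 CPM.

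**Figure D4:**
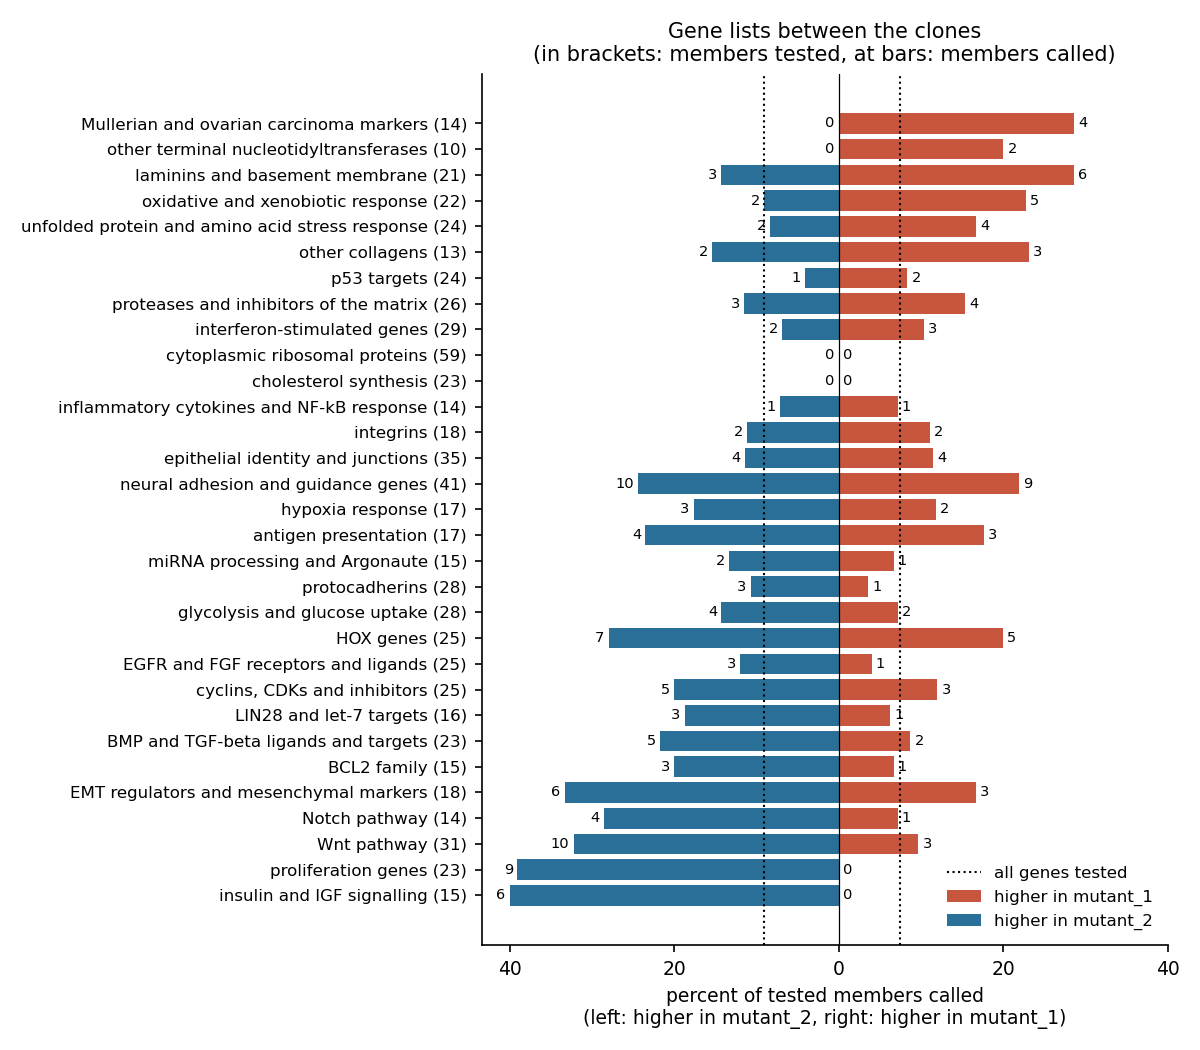
Percent of tested members called higher in mutant_1 (red, to the right) and higher in mutant_2 (blue, to the left) for the gene lists with at least 10 members tested (cell type marker lists not shown), with members tested in brackets, members called at the bars and the dotted lines at 7.45% and 9.12% for all genes. The proliferation and insulin/IGF lists hold 9 and 6 calls that are all higher in mutant_2, the Müllerian list holds 4 that are all higher in mutant_1, and the ribosomal protein and cholesterol lists hold 0.

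Several signalling lists were counted beside the 7.45% of all genes called higher in mutant_1 and the 9.12% called higher in mutant_2. Of 31 Wnt pathway genes tested, 10 were higher in mutant_2 and 3 in mutant_1 (median -0.34). The ligand WNT5A was at 233, 182, 192 and 111 CPM in mutant_2 and at 56.4, 66.4, 46.7 and 27.0 CPM in mutant_1 (-1.86 ± 0.26, adjusted p 0.00018), with the wildtype at 43.4 to 61.6 CPM. WNT10B, WNT7B, the receptors FZD5 and FZD8, the transcription factors TCF7 and TCF7L1 and the inhibitors SFRP1, NKD1 and NKD2 were also higher in mutant_2, and WNT2B, FZD1 and AXIN2 in mutant_1. AXIN2 and NKD1 are both induced by Wnt signalling in many cells and were called in opposite directions. Of 23 BMP and TGF-beta genes, 5 were higher in mutant_2 and 2 in mutant_1 (median -0.44). The ligand BMP4 was at 35.5, 31.9, 54.7 and 83.3 CPM in mutant_2, 15 to 23 CPM in the wildtype and 7.58, 4.93, 7.17 and 8.74 CPM in mutant_1 (-2.87 ± 0.31, adjusted p 1.7e-05), and its receptor BMPR1B was higher in mutant_1 by 1.20 ± 0.18. The inhibitory SMAD6 and SMAD7 were called higher in mutant_2. In the Notch list 4 of 14 genes were higher in mutant_2 (NOTCH3, the ligand JAG2, HEYL and NRARP) and 1, the repressor HES1, in mutant_1 at 40.5 to 58.9 CPM against 17.1 to 26.6 CPM. Of 25 EGFR and FGF receptor and ligand genes, 3 were higher in mutant_2 (ERBB3, NRG2 and FGFR4) and 1 in mutant_1 (FGFBP1), a share near the 16.6% of all genes.

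All 6 called genes of the insulin and IGF list were higher in mutant_2, of 15 tested, with a median of -0.60, and without both replicate 4 libraries 8 were higher in mutant_2 and 2 in mutant_1. Of these, 5 encode IGF binding proteins, which sequester insulin-like growth factors outside the cell, and IRS1 encodes a receptor substrate. IGFBP1 was at 3.97, 3.19, 2.93 and 4.04 CPM in mutant_2 and 0 to 0.579 CPM in mutant_1 (-3.72 ± 0.41, adjusted p 2.4e-05), and IGFBP6 at 1.01 to 2.22 and 0.316 to 0.583 CPM. The genes IRS1, IGFBP2 and IGFBP5 lie in the last part of chromosome 2, described below, and IGFBP1 and IGFBP3 are neighbours on chromosome 7.

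Of 23 proliferation genes, 9 were called higher in mutant_2 and 0 in mutant_1 (39.1%, against 16.6% of all genes, median -0.68). These were MCM4, AURKA, AURKB, TYMS, RRM2, BIRC5, CENPA, TPX2 and UBE2C, which act in DNA replication, mitosis and nucleotide supply. The summed level of the list was 3739, 4397, 3800 and 2686 CPM in mutant_1, 5937, 5919, 5670 and 3770 CPM in mutant_2 and 4319 to 4701 CPM in the wildtype. Replicate 4 was thus the lowest library in each mutant, and that of mutant_2 overlapped mutant_1. RRM2, the small subunit of ribonucleotide reductase, was at 352, 346, 314 and 143 CPM in mutant_2 and 151, 163, 136 and 69.8 CPM in mutant_1 (-1.15 ± 0.28, adjusted p 0.0079), a call that was lost when any wildtype library, mutant_1 replicate 1 or 3 or mutant_2 replicate 1, 2 or 3 was left out. Without both replicate 4 libraries, where 32.2% of all genes were called, 17 members were called, all higher in mutant_2. RRM2 differed by -1.17 in that setting (adjusted p 1.8e-08 in the edgeR test). MKI67 was at 494, 675, 485 and 201 CPM in mutant_1 and 711, 690, 657 and 338 CPM in mutant_2 and was not called (adjusted p 0.42). Among 25 cyclins, kinases and inhibitors, 5 were higher in mutant_2 (CCNB1, CCND1, E2F1 and the inhibitors CDKN2A and CDKN2C) and 3 in mutant_1 (CCNA1, CCND2 and E2F3), so that both promoters and inhibitors of the cycle were higher in mutant_2. None of 59 cytoplasmic ribosomal protein genes was called in the edgeR test on 12 libraries, with 15 higher in mutant_1 at an unadjusted p under 0.05 and 4 called by DESeq2, against 12 higher in mutant_1 and 1 in mutant_2 without the replicate 4 libraries. Their summed level was 71479, 59515, 78174 and 103673 CPM in mutant_1 and 60607, 59270, 66579 and 86364 CPM in mutant_2, highest in replicate 4 of each.

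Genes of antigen presentation were called in both directions, 3 higher in mutant_1 and 4 in mutant_2 of 17 tested. That is 41.2%, against 16.6% of all genes, with a median of -0.33. The immunoproteasome subunit gene PSMB9 was at 51.3, 34.8, 51.6 and 130 CPM in mutant_2, at 9.49, 9.60, 13.6 and 31.9 CPM in mutant_1 and at 1.70 to 2.51 CPM in the wildtype (-2.09 ± 0.44, adjusted p 0.0034), with replicate 4 the highest library of each clone. This call was lost when any of mutant_1 replicates 1 to 3 was left out. Without both replicate 4 libraries PSMB9 was called and differed by -2.10 (adjusted p 1.5e-07 in the edgeR test). The peptide transporter gene TAP1 lies beside PSMB9 and was at 74.9 to 208 CPM in mutant_2 and 31.6 to 78.7 CPM in mutant_1, with an overlap through replicate 4. Its call was lost when any library other than mutant_1 replicate 4 or mutant_2 replicate 2 was left out. Without both replicate 4 libraries TAP1 was called and differed by -1.27 (adjusted p 4.1e-07 in the same test). B2M and HLA-DMB were also higher in mutant_2, while HLA-C and the peptide-loading factor TAPBP were among those higher in mutant_1, with TAPBP at 127 to 188 CPM against 63.4 to 91.7 CPM. Of 29 interferon-stimulated genes 3 were higher in mutant_1 and 2 in mutant_2, and this 17.2% was near the share of all genes. The membrane proteins IFITM2 and IFITM3, whose sequences are nearly alike so that reads may be shared, were at 243 to 459 and 315 to 546 CPM in mutant_1 and at 87.4 to 123 and 164 to 238 CPM in mutant_2. Of 14 inflammatory genes 1 was called in each direction, and this 14.3% was also near the share of all genes. TNF was higher in mutant_1 (5.54 to 12.8 against 1.60 to 3.37 CPM) and CSF1 higher in mutant_2 (51.8 to 61.3 against 17.2 to 25.1 CPM).

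In the oxidative and xenobiotic response list, 5 genes were higher in mutant_1 and 2 in mutant_2 of 22 tested (median 0.32). That is 31.8%, against 16.6% of all genes. NQO1, a quinone reductase, was at 469, 404, 483 and 526 CPM in mutant_1, at 193, 201, 202 and 152 CPM in mutant_2 and at 125 to 131 CPM in the wildtype (1.33 ± 0.11, adjusted p 2.2e-06). CYP1A1, a xenobiotic-oxidising cytochrome, was at 6.83 to 19.8 CPM in mutant_1 and 3.49 to 4.58 CPM in mutant_2. The retinal dehydrogenase gene ALDH1A1 was low in both clones beside the wildtype range of 886 to 981 CPM, at 45.3 to 79.6 CPM in mutant_1 and 101 to 191 CPM in mutant_2. Of 24 genes of the unfolded protein and amino acid stress responses, 4 were higher in mutant_1 (DDIT4, HSPA5, PDIA4 and XBP1) and 2 in mutant_2 (VLDLR and STC2). Of 28 genes of glycolysis and glucose uptake, 2 were higher in mutant_1 (SLC2A1 and HK2) and 4 in mutant_2. This share of 21.4% was near the 16.6% of all genes. The lactate exporter SLC16A3 was at 122 to 144 CPM in the wildtype, at 1.15 to 2.11 CPM in mutant_1 and at 4.10 to 5.95 CPM in mutant_2. In the hypoxia list 2 of 17 were higher in mutant_1 and 3 in mutant_2 (29.4% together). CA12, a carbonic anhydrase, was at 14.7, 20.3, 17.4 and 37.2 CPM in mutant_1 and 113, 101, 112 and 146 CPM in mutant_2 (-2.41 ± 0.24, adjusted p 1.0e-05). None of 23 cholesterol synthesis genes was called in the edgeR test, with 3 higher in mutant_1 and 4 in mutant_2 at an unadjusted p under 0.05 and 1 called by DESeq2, and 1 and 2 were called higher in mutant_1 and mutant_2 without the replicate 4 libraries.

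HOX genes, which encode positional identity along the body axis, were split by cluster. Of the tested members 48.0% were called, against 16.6% of all genes. Of 25 tested, the 5 higher in mutant_1 were HOXB5 to HOXB9 of the HOXB cluster on chromosome 17, and the 7 higher in mutant_2 lay outside that cluster and included HOXC6, HOXC9, HOXC10, HOXD4, HOXD8 and HOXD11. The HOXD genes lie in the last part of chromosome 2, described below. The HOXD11 call (adjusted p 0.009) held without wildtype replicate 1, mutant_1 replicate 2 or mutant_2 replicate 4 and was lost without any other library. Without both replicate 4 libraries HOXD11 was called and differed by -2.62 (adjusted p 0.0024 in the edgeR test). HOXB5 was at 132, 111, 120 and 185 CPM in mutant_1, at 34.3, 45.1, 47.5 and 47.6 CPM in mutant_2 and at 32.9 to 37.4 CPM in the wildtype (1.65 ± 0.16, adjusted p 8.2e-06). HOXC10 was at 2.03, 1.94, 1.90 and 1.17 CPM in mutant_1 and at 7.55, 7.48, 7.62 and 6.88 CPM in mutant_2. In the Müllerian list 4 of 14 (28.6%) were higher in mutant_1 and 0 in mutant_2. Besides PAX8 and FOLR1 these were the HOX cofactors MEIS1, at 5.91 to 9.43 CPM against 0.968 to 1.89 CPM in mutant_2 and at most 0.208 CPM in the wildtype, and MEIS2, at 12.7 to 18.8 against 5.73 to 8.57 CPM.

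In the LIN28 and let-7 target list 4 of 16 genes were called between the clones and in the miRNA processing list 3 of 15, against 16.6% of all genes. In the first, CCND2 was higher in mutant_1, and MYCN, CCND1 and E2F5 were higher in mutant_2 (median -0.14). MYCN was at 1.90 to 3.24 CPM in mutant_2 and 0.437 to 0.810 CPM in mutant_1, and CCND2 at 0.194 to 0.293 and 0.422 to 1.04 CPM, both under their wildtype ranges of 5.61 to 9.25 and 7.54 to 8.33 CPM. HMGA2, a classic let-7 target, was at 228 to 448 CPM in mutant_1 and 240 to 474 CPM in mutant_2 and was not called (adjusted p 0.76). Among 15 genes of miRNA processing, PARN, a poly(A)-specific exonuclease, was higher in mutant_1, and AGO2 and DIS3L2, the exonuclease that degrades uridylated RNAs, were higher in mutant_2. Of 24 p53 targets 2 were higher in mutant_1 and 1 in mutant_2, and of 15 BCL2 family genes 1 (BIK) and 3 (BOK, BMF and HRK), all 4 of which encode pro-apoptotic members. BOK was at 9.86 to 14.7 CPM in mutant_1 and 23 to 34.4 CPM in mutant_2. The BIK call was lost when mutant_1 replicate 3 or any of mutant_2 replicates 1 to 3 was left out. Without both replicate 4 libraries BIK was called and differed by 1.33 (adjusted p 1e-05 in the edgeR test). Of 36 cancer-testis genes in the files only 4 were tested, and MAGED2 was higher in mutant_1. Over all lists 183 of 710 tested members were called, against 310 without both replicate 4 libraries. That setting called 32.2% of all genes, so more list members are called there too. Its counts higher in mutant_1 and mutant_2 were 7 and 8 in the epithelial list and 5 and 11 among cyclins, kinases and inhibitors. They were 5 and 7 among p53 targets, 6 and 6 among interferon-stimulated genes and 8 and 4 in glycolysis. The BMP and TGF-beta list had 3 and 9, and the EGFR and FGF genes 2 and 7. Genes of epithelial-mesenchymal transition had 3 and 10, integrins 2 and 4, and HOX genes 6 and 10. Antigen presentation had 5 and 4, and the Wnt pathway 4 and 10.

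The differences were not spread evenly over the genome. Taking each chromosome's genes together (RefSeq positions, GRCh38.p14, for 13717 of the tested genes), the median log2 fold change was 0.37 on chromosome 6, 0.18 on chromosome 16, -0.28 on chromosome 8 and -0.21 on chromosome 2, and from -0.15 to 0.09 on every other chromosome. On chromosome 6, 149 of 702 genes (21.2%) were called higher in mutant_1 and 42 higher in mutant_2, and on chromosome 8, 21 and 64 of 451. The median over 10-Mb windows with at least 20 tested genes was at least 0.3 in 24 of 245 windows and at most -0.3 in 25, while the middle 50% of windows lay from -0.15 to 0.08. The parts described next were marked out on these window values, so their values are a description without a test.

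On chromosome 2 all 10 windows from chr2:150000001 to the end of the chromosome had medians from -0.78 to -0.41. Of the 365 genes tested in this part, 114 (31.2%) were called higher in mutant_2 and 8 in mutant_1, and 86.6% had a negative log2 fold change, with a median of -0.54. The 550 genes before it had a median of -0.04, with 50 and 32 called. Relative to the wildtype mean, the median of the last part was -0.50, -0.49, -0.58 and -0.96 in the 4 mutant_1 libraries and 0.02, 0.04, -0.07 and -0.40 in the 4 mutant_2 libraries, and that of the first part ranged from -0.02 to 0.06 in replicates 1 to 3 of both clones. The shift was thus mainly on the side of mutant_1, with replicate 4 lower than the other replicates in both clones. By window, medians relative to the wildtype ranged from -1.09 to -0.19 in mutant_1 and from -0.46 to 0.17 in mutant_2. Both clones were lowest in the window from chr2:220000001. The median between the clones over this part was -0.58 without both replicate 4 libraries. CPS1, in the same part, was higher in mutant_1.

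On chromosome 6 the 702 genes had medians relative to the wildtype of 0.08, 0.11, 0.11 and -0.03 in the mutant_1 libraries and -0.22, -0.21, -0.24 and -0.31 in the mutant_2 libraries. On chromosome 8 the 451 genes were at 0.01, -0.01, -0.04 and -0.27 in mutant_1 and at 0.25, 0.27, 0.24 and 0.03 in mutant_2. The first 30 Mb of chromosome 12 (155 genes, median between the clones 0.38) were at -0.04, 0.00, -0.08 and -0.27 in mutant_1 and -0.39, -0.35, -0.37 and -0.49 in mutant_2, while the rest of that chromosome ranged from -0.02 to 0.04 over all 8 libraries. The first 40 Mb of chromosome 16 (335 genes, median 0.42) were at 0.00, -0.03, 0.03 and 0.37 in mutant_1 and -0.38, -0.37, -0.29 and -0.09 in mutant_2, and the rest of it had a median between the clones of -0.07. For chromosomes 6, 12 and 16 the lower clone was mutant_2, and for chromosome 8 mutant_2 was the higher. Other chromosomes held runs of shifted windows too. Medians between the clones were 0.26 to 0.43 in the windows of chromosome 4 up to chr4:60000000, 0.23 to 0.29 on chromosome 1 up to chr1:50000000, 0.20 to 0.33 on chromosome 10 from chr10:70000001 to chr10:130000000, and 0.40 and 0.28 in the first windows of chromosome 11. Lower in mutant_1 were the windows of chromosome 1 from chr1:170000001 to its end (-0.50 to -0.22), 1 window of chromosome 3 from chr3:180000001 (-0.48) and 1 of chromosome 4 from chr4:120000001 (-0.63). Pooled over both signs, the genes outside chromosomes 2, 6, 8, 12 and 16 had a median of 0.00, with 6.50% called higher in mutant_1 and 8.62% in mutant_2. Whether the DNA copy number of the clones differs was not tested.

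**Figure D5:**
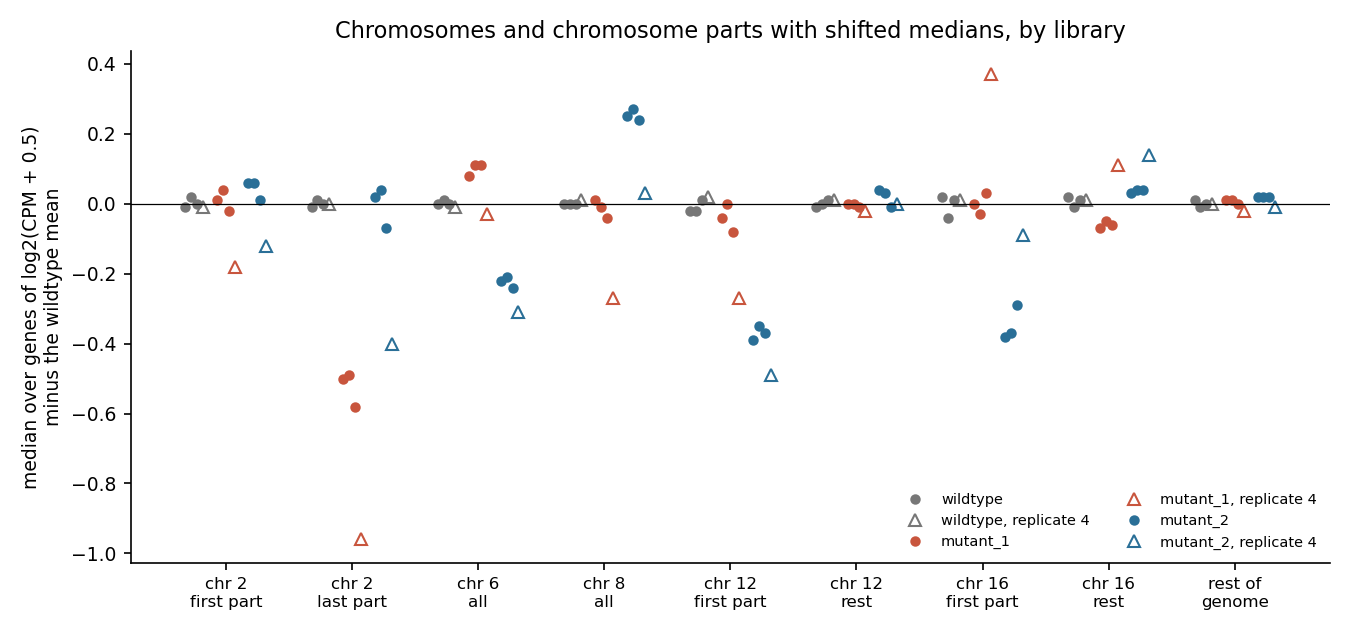
Median over genes of log2(CPM + 0.5) minus the wildtype mean (vertical) for chromosomes or chromosome parts (horizontal), with 1 symbol per library, colours for the 3 groups and open triangles for replicate 4. The last part of chromosome 2 is low in the mutant_1 libraries (-0.96 to -0.49), chromosome 6 and the first parts of chromosomes 12 and 16 are low in mutant_2, chromosome 8 is high in mutant_2 replicates 1 to 3, and the pooled median of the other chromosomes, which hold windows shifted in both directions, lies from -0.02 to 0.02 over the 12 libraries.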

How the data were processed

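Poly(A)-selected mRNA of IGROV1 wildtype, mutant_1 and mutant_2 cells (4 libraries each, directional library kit) was analysed. Per the labels and the study's methods, the authors trimmed reads with Trimmomatic 0.39, removed ribosomal RNA, aligned to hg38 with HISAT2 2.1.0 and counted reads per gene with HTSeq, whose strand setting and annotation are not given in the sources used here. The deposited values are raw counts for 26485 gene symbols, of which 25318 were matched to RefSeq genes (GRCh38.p14), 1566 of them by a synonym. Summary lines of the counter were left out of totals and tests, and in the mutant libraries 9.74 to 12.58% of reads fell in no feature and 1.52 to 1.70% were ambiguous. Reads assigned to genes numbered 7729672 to 25054688 per mutant library.

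Counts of the 12 libraries were fitted with edgeR 4.0.16 (R 4.3.3; filterByExpr, TMM scaling, quasi-likelihood test, 1 coefficient per group). Genes with a Benjamini-Hochberg adjusted p under 0.01 over all 13932 genes tested were called, and the SE of a log2 fold change was its size divided by the root of the F statistic. CPM values are counts per 1000000 reads on TMM-scaled library sizes. The script was tested on simulated data. Each library's precision is limited by counting error, and intervals cover that error only. DESeq2 1.42.0 and other scalings, filters and terms served as alternatives. Ratios against 3 or fewer counts are of counts pooled per clone over unscaled library totals, with exact 95% intervals. The 39 gene lists, the compared clones and the tests were chosen with earlier results of these data known. Genes were named by rule: per direction the 15 largest differences among called genes with at least 10 CPM and no overlap of the clones, the 10 most abundant with at least a 2-fold difference, up to 8 per direction with at least 5 CPM in 1 clone and at most 0.1 CPM in the other, the 10 genes called against the wildtype in opposite directions with the largest smaller change, up to 4 per list (cell type marker lists aside) with at least a 2-fold difference, and TUT4, TUT7, the other terminal nucleotidyltransferases, LIN28A, LIN28B and BCL2. Sex-linked marker genes (XIST and the Y-linked genes) were not named. Called list members are named without values where the rule did not pick them. PAX8, EPCAM, KRT8, VIM, HMGA2, MKI67, CTH, DLX5, DLX6, TMSB4X and APOL1 were given values outside the rule, after the data were seen. Some genes that the rule selects are not reported here.

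Replicate numbers follow the passage. Deviations of same-numbered mutant_1 and mutant_2 libraries from their clone's mean correlated across genes at 0.33, 0.57, 0.13 and 0.79, all over 0.1, so the numbers were treated as pairing the clones in a fit with the replicate number as a block. This rested on replicate 4: among replicates 1 to 3 alone the correlations were -0.10, 0.10 and 0.15. In the fit of all 4 replicates, unlike-numbered pairs of replicates 1 to 3 correlated at 0.13 to 0.56, also over 0.1. Pairs of a replicate 4 library with another number were negative. The values over 0.1 therefore do not show that replicates 1 to 3 are paired by number.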

Additional observations from a re-analysis of the deposited data

Results flagged for a closer look

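For the named genes, each group's 4 libraries were checked for a highest or lowest library far from the other 3 (gap over range above Dixon's 95% critical value), which chance gives in about 1 in 20 groups. It was met in 22 of 345 gene and group combinations, and 15 of the 22 were the replicate 4 library of a mutant. In mutant_1 replicate 1 it was BCL2 at 86.6 CPM (the others 67 to 70). In mutant_1 replicate 4 these were IL16 at 28.3 CPM (the others 9.6 to 11.3), PDLIM1 at 1627 CPM (the others 536 to 704), ITGB8 at 28.6 CPM (the others 98.4 to 106), IFITM2 at 459 CPM (the others 243 to 278), NRG2 at 0.728 CPM (the others 1.04 to 1.05), HOXC10 at 1.17 CPM (the others 1.9 to 2.03), TUT4 (ZCCHC11) at 11.9 CPM (the others 31.2 to 33.5) and TUT1 at 49.8 CPM (the others 29.7 to 31.7). In mutant_2 replicate 1 it was MYCN at 3.24 CPM (the others 1.9 to 2.02). In mutant_2 replicate 4 these were NLGN4X at 87.8 CPM (the others 127 to 132), IGFBP3 at 1616 CPM (the others 1071 to 1119), SOD3 at 620 CPM (the others 203 to 270), VLDLR at 141 CPM (the others 207 to 211), ALDH1A1 at 191 CPM (the others 101 to 111), TENT2 (PAPD4) at 21.5 CPM (the others 36.8 to 38.8) and PAPOLA at 155 CPM (the others 231 to 242). In the wildtype replicate 1 these were S100A4 at 728 CPM (the others 617 to 627), HLA-DMB at 17.8 CPM (the others 8.06 to 9.25), IGFBP1 at 2.47 CPM (the others 1.68 to 1.72) and LIN28A at 175 CPM (the others 239 to 244). In the wildtype replicate 2 it was SORCS2 at 63.4 CPM (the others 78.7 to 80.6).

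For 27 of the named genes reported here, both clones were called against the wildtype and in opposite directions. The difference between the clones (log2 fold change, mutant_1 minus mutant_2) is then fixed in its direction by that choice and is given as a value only. In the 13 genes higher in mutant_1 it was 7.61 for PLCXD3, 6.82 for HSPB8, 5.39 for SETBP1, 5.05 for CPA4, 4.89 for GRIK2, 1.20 for FTH1, 1.88 for MFGE8, 1.91 for LGALS3BP, 5.93 for PCSK2, 5.56 for BCAT1, 4.15 for TAGLN, 2.41 for NID2 and 2.98 for TIMP3. In the 14 genes higher in mutant_2 it was -8.67 for ASIC2, -6.15 for ANGPTL2, -5.49 for DOCK10, -5.33 for ADRA2A, -5.05 for AMPH, -4.65 for ITGA1, -4.56 for SCUBE3, -4.53 for ZNF385B, -4.35 for KCNH2, -2.75 for LAMC3, -1.39 for COL1A1, -1.38 for CSF1, -2.87 for BMP4 and -2.53 for PCDH1.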

How the results depend on the processing

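Of 130 named genes called between the clones, 110 kept the call and the direction in every alternative that tested them and 0 reversed in any. The 20 that lost the call in at least 1 alternative were ALDH1A1, BIK, BMF, CCNA1, COL12A1, FAM46B, HOXD11, HRK, ITGA6, ITGB8, LOX, PDK1, PSMB9, RRM2, SLC2A4, SOD3, STC2, TAP1, TGFB2 and VLDLR, and 16 of them lost it when the spread was estimated from the 8 mutant libraries alone. That fit called 1428 genes (583 higher in mutant_1 and 845 higher in mutant_2) against 2309. At an adjusted p under 0.05 there were 3806 (1821 and 1985). Settings chosen after seeing the data left out both mutant replicate 4 libraries, with 4549 genes called (2171 and 2378), 310 list members called and 6291 and 6535 genes called against the wildtype for mutant_1 and mutant_2, or every replicate 4 library, with 4476 (2141 and 2335), 305 list members and 5866 genes for mutant_2 against the wildtype. DESeq2 called 3125 genes, which held 99.4% of the main calls. Library totals in place of TMM lowered the share called higher in mutant_1 from 45.0% to 36.5% and the chromosome 6 median to 0.29. With the replicate number as a block 2812 genes were called, and the pairing changed the call of no named gene. Leaving out 1 replicate at a time gave 1733 to 2799 genes called (718 to 1301 and 1003 to 1561), 146 to 212 list members, 3062 to 4450 and 3043 to 5084 genes against the wildtype, and chromosome medians of -0.27 to -0.18 (2), 0.34 to 0.39 (6), -0.31 to -0.26 (8) and 0.09 to 0.24 (16). TUT7 between the clones ranged from 0.47 to 0.78 when 1 replicate was left out, passed the threshold without mutant_1 replicate 4 (0.78, adjusted p 0.0021), and was 0.66 (adjusted p 0.00063 and 0.00093) without both mutant or all replicate 4 libraries. TUT7 in mutant_1 against the wildtype ranged from -0.98 to -0.67 without 1 replicate, lost the call without any wildtype library, mutant_1 replicate 1 or 3 or mutant_2 replicate 1, 2 or 3, and lost it with library totals alone (-0.90, adjusted p 0.014) and with passage as a covariate (-1.45, adjusted p 0.012). The causes were not tested. Depth was lowest in mutant_1 replicate 4 (7729672 reads), and genes with few counts there carry more counting error.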
